A study of Mus musculus with 12 samples.

Results

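Kidneys of control mice of 2 genetic backgrounds were compared: FVB, an inbred albino strain often used to make transgenic mice, and a mixed C57BL6/SV129 background, the kind of stock that arises when a gene is altered in cells of one strain and the mice are bred with another. The comparison used every array labelled as a control, 3 FVB and 3 mixed, which was 6 of the 12 arrays of the series. Each array held whole-kidney RNA pooled from 3 mice aged 3 weeks, so the 6 arrays stood for 18 mice and n was 3 pools per group, and p-values measure the spread between pools. The other 6 arrays, 3 of A-ZIP mice on FVB and 3 of Pparg null mice (PpargΔ/Δ in the labels) on the mixed background, were the mutants for which these controls were made. They did not enter the main test of the control contrast and served as a second set of arrays on the same backgrounds. They also entered an alternative test of that contrast, in which all 12 arrays shared the estimate of the spread. A-ZIP is a transgene that blocks the growth of fat tissue, and Pparg encodes the nuclear receptor that directs fat cell formation. The sources used here do not give what the controls carried beyond the word control, how Pparg was deleted, the C57BL6 and SV129 substrains or the sex of the mice. All mice were kept in a 12-hour light and dark cycle, per the labels.

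Inbred strains differ at many places in the genome, and these differences can change how much RNA a gene makes. Known examples in mice include the major histocompatibility complex (the H2 genes, which present peptides to T cells), the interferon-inducible Ifi200 genes, and Nnt, a mitochondrial proton pump that some C57BL6 substrains lack. Kidney also carries large families of transporters and drug-metabolizing enzymes whose copies lie side by side and vary among strains. An array measures RNA by its binding to short probes designed on a reference genome, so a strain variant under a probe lowers the signal in that strain with no change in RNA. With arrays alone, a change in RNA and a variant under the probes cannot be told apart, and this holds for every difference given here.

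The tissue label was checked first. All 33 measured proximal tubule markers had a group mean above the median of all gene means in both groups, and the same held for 28 of 29 loop and distal tubule markers and 28 of 32 podocyte and glomerulus markers. Of markers of other tissues and cells, 2 of 15 adrenal, 1 of 14 skeletal muscle and 0 of 24 lymphocyte genes lay above that median, as did 8 of 20 urothelium genes and, of 19 fat genes, 7 in FVB and 8 in the mixed controls. Probes differ in binding, so these ranks are only a coarse check. Xist, the RNA of the inactive X chromosome, read 12.18 to 12.26 on the FVB arrays and 12.24 to 12.34 on the mixed arrays, in log2. The Y-linked genes read 3.11 to 4.75 on all 6 arrays, below percentile 25 of gene means (5.96). Xist was thus high and the Y-linked genes low in both groups. Umod, which encodes uromodulin of the loop of Henle, read 13.09, 13.15 and 13.08 on the FVB arrays and 13.11, 13.05 and 13.12 on the mixed arrays. The 6 arrays had medians of 7.17 to 7.19 over all probe sets. Across genes, the correlation was 0.993 to 0.995 between arrays of different background and 0.997 to 0.998 within a background. The first principal component, with 59.7% of the variance, set the FVB arrays apart from the mixed arrays. The second, with 14.1%, set replicate 1 of both groups apart from replicates 2 and 3. Arrays were left out 1 at a time, so replicate 1 of both groups was not left out together.

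Of 19938 genes measured, 1589 (7.97%) differed between the backgrounds at an adjusted p under 0.05 in limma, the threshold for every call below, with 739 (3.71%) higher and 850 (4.26%) lower in FVB. Each of these 1589 genes had 3 FVB values that did not overlap the 3 mixed values, against 28.5% of all genes. The genes were called on these same values, so the lack of overlap adds no support to the calls. Most called differences were small, with a median size of 0.358 in log2. The larger the difference, the more often FVB was the lower group: 65 of 103 genes with a difference of at least 2-fold were lower in FVB, as were 16 of 19 with at least 4-fold and 6 of 7 with at least 8-fold. The number of calls rested on single arrays. It fell to 1082 without mixed control 1, 1062 without mixed control 2 and 911 without mixed control 3. It was 894 without FVB control 1, 792 without FVB control 2 and 919 without FVB control 3.

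Among called genes the largest falls in FVB were in Ttr and Cfi. Ttr, which encodes transthyretin, the carrier of thyroid hormone and of the retinol-binding protein, read 6.47, 6.79 and 6.73 on the FVB arrays and 11.01, 10.40 and 11.08 on the mixed arrays. It was 17.9-fold lower in FVB (log2 difference -4.16, SE 0.18, adjusted p = 4.2e-05, limma). Cfi, the serine protease that cuts the complement proteins C3b and C4b, read 5.45, 5.69 and 5.62 against 9.43, 9.14 and 9.68, a fall of 14.2-fold. In both genes the lowest mixed array lay more than 3 log2 units above the highest FVB array. Trim12a, one of a family of antiviral tripartite-motif genes, read 4.19, 4.79 and 4.50 in FVB and 7.92, 8.05 and 7.85 in the mixed controls, and its relative Trim30d differed by -1.85. The neighbouring copy Trim12c went the other way, with 7.65, 7.65 and 7.72 in FVB and 7.28, 7.21 and 6.99 in the mixed controls, so which copy each probe set read is uncertain. Lipo3, a lipase family gene, differed by -2.97, Inmt, an enzyme that methylates indoles, by -2.08, and the odorant receptor gene Olfr1033 by -1.80. Among clone-named genes, which the naming rule left out and which were chosen here after their values were seen, 4930578G10Rik differed by -3.70, AI506816 by -3.25 and BC023105 by -3.10.

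The largest rise among called genes was in Kcnj2, the inward-rectifier potassium channel Kir2.1, which read 9.80, 9.82 and 9.64 on the FVB arrays and 6.30, 6.03 and 5.78 on the mixed arrays. It was 13.1-fold higher in FVB (log2 difference 3.71, SE 0.12, adjusted p = 1.7e-05, limma). Gdpd3, which releases lysophosphatidic acid from lysophospholipids, read 10.44, 10.75 and 10.45 against 7.92, 7.53 and 7.73, a rise of 7.08-fold. The 2 genes had tight groups and wide gaps. Ceacam2, a cell adhesion gene, was also higher in FVB (log2 difference 2.38), with a wide spread over the FVB pools, which read 11.30, 10.63 and 9.69 against 8.38, 8.09 and 8.002. Pm20d1, which makes N-acyl amino acids, read 11.36, 11.38 and 11.36 in FVB and 9.87, 9.32 and 9.11 in the mixed controls. Frzb, a secreted Wnt antagonist, rose by 1.65, Rab30, a GTPase of the Golgi, by 1.61, Tmem267 by 1.61 and Snap91, a clathrin assembly protein, by 1.52. Akr1d1, which reduces bile acid precursors and steroids, differed by 1.64 but was called only with all arrays or without FVB control 3. Its adjusted p reached 0.13 without 1 of mixed control 1, 2 or 3 or FVB control 1 or 2.

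**Figure D1:**
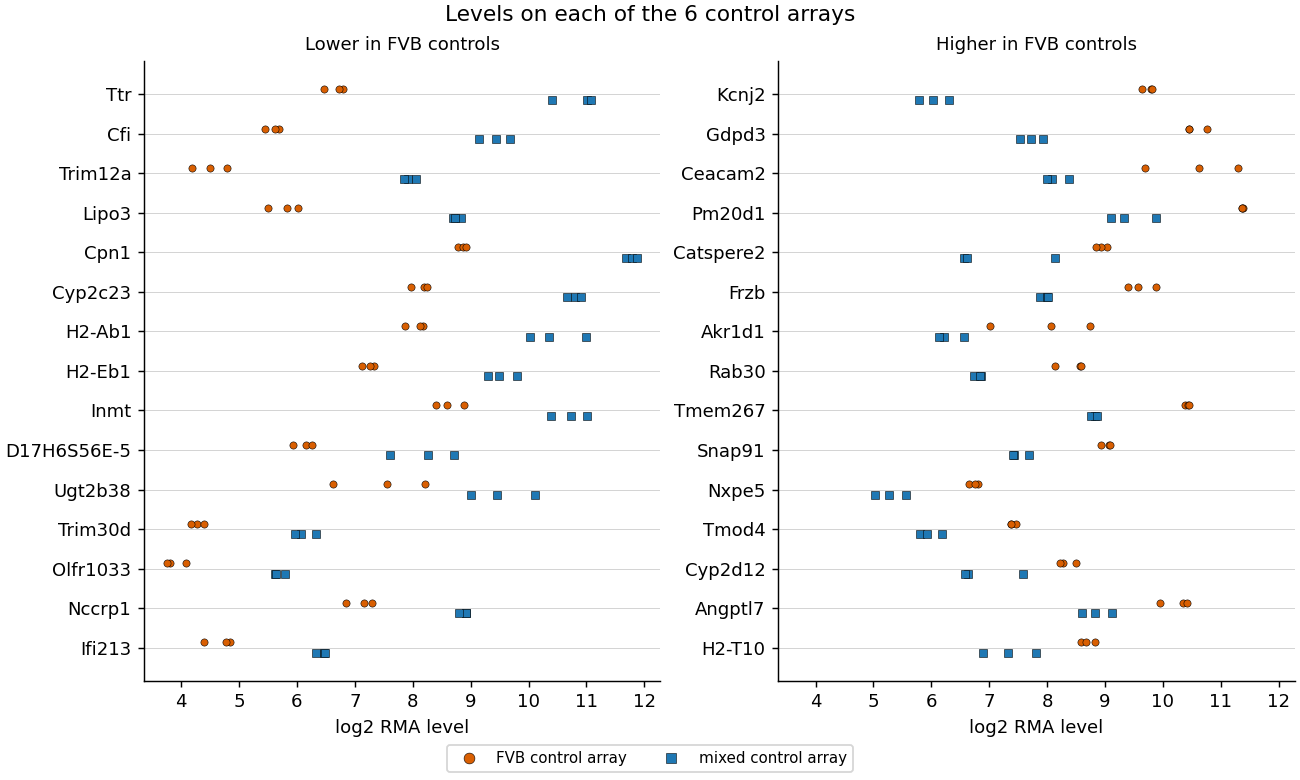
Log2 RMA level (x axis) of the 15 named genes with the largest falls (left) and the 15 with the largest rises (right) in FVB; circles are the 3 FVB control arrays and squares the 3 mixed control arrays. The groups do not overlap in any of the 30 genes, which the naming rule required. Ttr, Cfi, Trim12a and Kcnj2 have gaps of more than 3 log2 units, and Ceacam2, Akr1d1 and Ugt2b38 have wide spreads in FVB.

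Genes induced by interferon were lower in FVB. Interferons signal that a virus is present, and the genes they induce sense foreign nucleic acid, block its copying and mark infected cells. Of 38 interferon response genes measured, 27 fell and 0 rose, against 4.26% and 3.71% of all genes, and the median difference was -0.56 against 0.02 over all genes. At an unadjusted p under 0.05, 33 were lower and 0 higher. Of the 11 that were not called, 10 also had a difference below 0. The mean level of the list was 7.51, 7.46 and 7.41 on the FVB arrays and 8.16, 7.90 and 8.03 on the mixed arrays. The count of falls was 16 without FVB control 3, 18 without FVB control 2 and 15 when all 12 arrays shared 1 estimate of the spread, and 20 to 25 without 1 of the other 4.

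The promoters of 3 of the fallen genes are shown because the elements through which interferon acts, bound by STAT and IRF proteins, lie in such windows. These 3 had the smallest p among fallen genes whose window held a match to the element described below. That they hold matches was therefore set by the choice. Each window holds the 250 bases before the start of transcription in the C57BL/6J reference (RefSeq, GRCm38.p6), 5′ to 3′ on the gene's strand. Capitals mark each match, on either strand, to a short form of the interferon element: 2 copies of GAAA with any 2 bases between them. The windows are chr19:34583279-34583528 on the plus strand for Ifit3, chr19:34640639-34640888 on the plus strand for Ifit1 and chr5:92348890-92349139 on the minus strand for Cxcl10.
Ifit3: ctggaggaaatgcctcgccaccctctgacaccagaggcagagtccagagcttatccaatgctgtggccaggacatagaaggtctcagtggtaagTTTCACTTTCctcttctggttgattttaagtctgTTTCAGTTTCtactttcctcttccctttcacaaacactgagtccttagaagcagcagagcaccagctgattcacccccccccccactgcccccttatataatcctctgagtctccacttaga
Ifit1: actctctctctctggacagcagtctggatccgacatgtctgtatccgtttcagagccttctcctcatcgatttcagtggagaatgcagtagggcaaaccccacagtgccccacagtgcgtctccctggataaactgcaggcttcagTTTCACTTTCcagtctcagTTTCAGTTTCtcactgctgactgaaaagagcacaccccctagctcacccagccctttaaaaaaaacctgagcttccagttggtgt
Cxcl10: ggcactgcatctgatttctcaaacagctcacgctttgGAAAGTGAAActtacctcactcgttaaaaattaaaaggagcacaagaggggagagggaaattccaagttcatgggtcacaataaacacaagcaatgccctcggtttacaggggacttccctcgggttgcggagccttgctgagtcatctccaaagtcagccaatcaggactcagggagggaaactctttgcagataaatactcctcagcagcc
Ifit3 and Ifit1 each hold 2 matches and Cxcl10 holds 1. A window was listed for 16 of the 27 interferon genes that fell, and 7 of these 16 held a match. Of the 11 interferon genes not called, 8 had a window listed and 5 of the 8 held a match. Over all 27025 genes with a window listed the share was 3.46%. Within the list, the share with a match was 43.8% for the fallen genes and 62.5% for those not called. A match describes letters of the reference, and the FVB genome was not read.

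Among sensors and regulators of the response, 8 of 9 measured genes fell, against 4.26% of all genes. Ifih1, the sensor of long double-stranded RNA, read 7.76, 7.66 and 7.79 on the FVB arrays and 9.09, 8.86 and 8.88 on the mixed arrays (log2 difference -1.21, SE 0.08, adjusted p = 0.00022, limma). Irf9, a DNA-binding factor of the interferon response, read 8.56, 8.51 and 8.48 against 9.16, 9.02 and 9.11. Both kept their call whichever array was left out. Irf7, the regulator that drives the later wave of interferon, read 7.96, 7.66 and 7.53 against 8.99, 8.39 and 8.58, and lost its call without FVB control 2 or 3 (adjusted p up to 0.059). Zbp1, a sensor of left-handed nucleic acid, was the regulator not called, at 6.81, 6.72 and 6.79 against 7.73, 7.03 and 7.36 (adjusted p = 0.060). With replicate number as a block it passed at 0.045.

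Effectors fell in 10 of 18 measured genes, against 4.26% of all genes. Ifit3, whose product binds viral RNA together with Ifit1, read 8.72, 8.67 and 8.57 in FVB and 10.20, 9.85 and 10.01 in the mixed controls (log2 difference -1.37, SE 0.09, adjusted p = 0.00029, limma). Ifit1 read 7.12, 6.87 and 6.65 against 8.28, 7.85 and 7.998. Oas2, which makes the signal that activates RNase L, fell by 0.80. Its paralog Oas3 read 5.95, 6.13 and 6.04 against 6.04, 6.08 and 6.08, and Mx1 read 4.88, 4.69 and 4.70 against 4.76, 4.80 and 4.75, so the groups overlapped in both. Of the 9 measured interferon-induced GTPases, which attack the vacuoles of intracellular parasites, 7 fell, among them Iigp1 at 6.91, 6.87 and 6.995 against 8.45, 8.11 and 9.11. Both measured chemokines fell: Cxcl10, which draws T cells, read 6.08, 5.92 and 6.05 against 6.85, 6.57 and 6.92, and Cxcl9, which lost its call without FVB control 1 or 3 (adjusted p up to 0.056), differed by -1.03. When all 12 arrays shared 1 estimate of the spread, the adjusted p was 0.092 for Iigp1, 0.39 for Cxcl10 and 0.30 for Cxcl9.

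The Ifi200 genes are a cluster of DNA sensors that differs among mouse strains. Of 10 measured members 5 were lower and 0 higher in FVB, against 4.26% and 3.71% of all genes. Ifi213 read 4.85, 4.77 and 4.40 on the FVB arrays and 6.33, 6.47 and 6.48 on the mixed arrays, and Ifi203 fell by 0.62. In contrast, Ifi202b, the member best known for a strain difference, read 4.03, 3.96 and 4.05 against 4.24, 3.74 and 3.60 and was not called.

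Part of the antigen presentation genes were lower in FVB, with the widest differences in class II. Of 32 measured, 13 fell and 3 rose, against 4.26% and 3.71% of all genes, with a median difference of -0.24. The falls numbered 8 without FVB control 3 and 4 when all 12 arrays shared 1 estimate of the spread, and the rises 1 or 2 without any 1 array and 1 with the replicate block. Of 10 class II genes, which present peptides from outside the cell, 6 fell. H2-Ab1 read 7.86, 8.17 and 8.12 on the FVB arrays and 10.35, 10.03 and 10.99 on the mixed arrays (log2 difference -2.40, SE 0.22, adjusted p = 0.0013, limma), and H2-Eb1 read 7.12, 7.34 and 7.27 against 9.48, 9.30 and 9.80. FVB mice carry the q haplotype of this complex and C57BL6 and SV129 mice the b haplotype, and the coding sequences of both genes differ between the haplotypes. Cd74, the invariant chain that escorts class II, read 9.41, 9.46 and 9.40 against 10.36, 10.03 and 10.96. It lost its call without mixed control 1 or any 1 FVB array (adjusted p up to 0.082), as did Ciita, the master regulator of class II, without any 1 array but FVB control 2 (up to 0.10). With the replicate block Ciita was at an adjusted p of 0.065, and when all 12 arrays shared 1 estimate of the spread Cd74 was at 0.22.

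Class I genes, which present peptides from inside the cell, differed less evenly. Of 11 measured, 3 fell and 1 rose, against 4.26% and 3.71% of all genes. H2-Q5 read 7.58, 7.75 and 7.83 in FVB and 8.99, 8.78 and 8.99 in the mixed controls. H2-T10 read 8.59, 8.83 and 8.67 against 7.81, 6.89 and 7.32, and was higher in FVB. B2m, the chain that all class I proteins share, read 12.38, 12.28 and 12.45 against 12.61, 12.51 and 12.68 without passing the threshold (adjusted p = 0.078), and with the replicate block it passed at 0.035. Of the 10 genes for peptide cutting and loading, 4 fell and 2 rose. Tap1, the peptide pump of the endoplasmic reticulum, read 7.79, 7.61 and 7.58 against 8.40, 8.18 and 8.48, and was at an adjusted p of 0.19 when all 12 arrays shared 1 estimate of the spread. Genes of the H2-Q, H2-T, Gbp, Ugt2b, Klk1b and Akr1c families are near copies of each other, so a probe set may read more than 1 of them.

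Macrophage and dendritic cell markers moved with these lists. Of 29 measured, 10 fell and 0 rose, against 4.26% and 3.71% of all genes (17 lower and 1 higher at an unadjusted p under 0.05). The falls were not all at separate places: C1qa, C1qb and C1qc lie next to each other in gene order, as do Fcgr3 and Fcgr4. In 25 of the 29 the difference lay below 0, with a median of -0.29, and their mean level was 6.83 to 6.88 on the FVB arrays and 7.08 to 7.29 on the mixed arrays. The falls numbered 6 without mixed control 1 or without FVB control 1, and 5 when all 12 arrays shared 1 estimate of the spread. On the mutant arrays 2 of the 29 were called lower and 0 higher, against 2.05% and 1.83% of all genes, with 26 below 0. Fcgr4, an activating IgG receptor, read 5.29, 5.51 and 5.23 in FVB and 6.78, 6.77 and 7.32 in the mixed controls. Adgre1, the F4/80 antigen, read 6.89, 6.92 and 6.74 against 7.76, 7.66 and 7.996, and C1qb, a chain of complement C1q made by macrophages, read 8.51, 8.56 and 8.41 against 9.27, 9.17 and 9.38. In 3 other markers the groups overlapped. Csf1r, the growth factor receptor of the lineage, read 9.61, 9.59 and 9.37 against 9.59, 9.49 and 9.57, Cx3cr1 read 7.70, 7.68 and 7.71 against 7.90, 7.67 and 7.88, and Itgam read 6.47, 6.29 and 6.43 against 6.45, 6.32 and 6.80. Cd68 read 7.51, 7.36 and 7.46 against 7.88, 7.52 and 7.67, without overlap and without a call (adjusted p = 0.18). These 4 were chosen after their values were seen. Of 24 lymphocyte markers limma called 0 (3 lower and 0 higher at an unadjusted p under 0.05), with mean levels of 5.44 to 5.50 in FVB and 5.48 to 5.58 in the mixed controls. In whole kidney, fewer cells of a type and less RNA per cell cannot be told apart, and the part of macrophage number in the interferon and antigen presentation results was not tested.

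**Figure D2:**
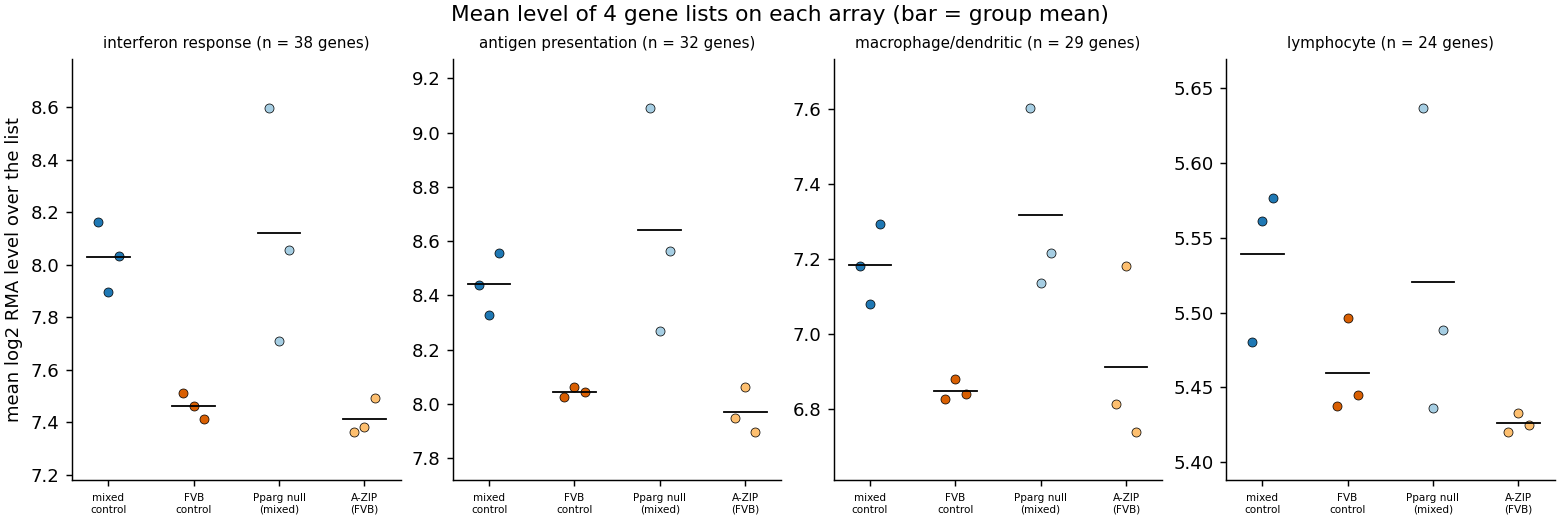
Mean log2 RMA level (y axis, a separate scale in each panel) of 4 gene lists on each of the 12 arrays; points are arrays and bars group means. On the FVB control arrays the interferon list lies at 7.41 to 7.51 and on the mixed control arrays at 7.90 to 8.16, and Pparg null 1 stands highest in all 4 panels.

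Between the 2 mutant groups, mutation and background differ together. On the mutant arrays the interferon list lay at 7.36, 7.38 and 7.49 in A-ZIP kidneys. It lay at 8.60, 7.71 and 8.06 in Pparg null kidneys, without overlap. The median difference of its 38 genes was -0.66, with 36 below 0, while limma called 5 lower (against 2.05% of all genes in that comparison) and 0 higher (against 1.83%), or 29 and 0 at an unadjusted p under 0.05. Iigp1 spread widely over the Pparg null arrays, at 10.76, 7.91 and 9.81 against 6.97, 6.72 and 7.06 over the A-ZIP arrays. Ifih1 (log2 difference -1.29) and Ifit3 (-1.25) were called lower in the mutants as in the controls.

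Complement genes differed in both directions: of 38 complement and acute phase genes 3 rose and 6 fell, against 3.71% and 4.26% of all genes. The falls numbered 3 without FVB control 2 or 3. Beside Cfi, C4b, the carrier of most complement C4 activity, read 6.80, 6.74 and 6.02 on the FVB arrays and 7.95, 7.88 and 8.24 on the mixed arrays. Serping1, the C1 inhibitor, was higher in FVB at 11.48, 11.55 and 11.56 against 10.94, 10.92 and 11.05, and so was the protease inhibitor Serpina3n at 6.97, 7.10 and 6.91 against 5.64, 5.49 and 5.80. Hc, the gene of complement C5, carries a known loss-of-function deletion in FVB, and its RNA read 5.06, 4.88 and 5.12 against 4.94, 5.07 and 5.03.

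**Figure D3:**
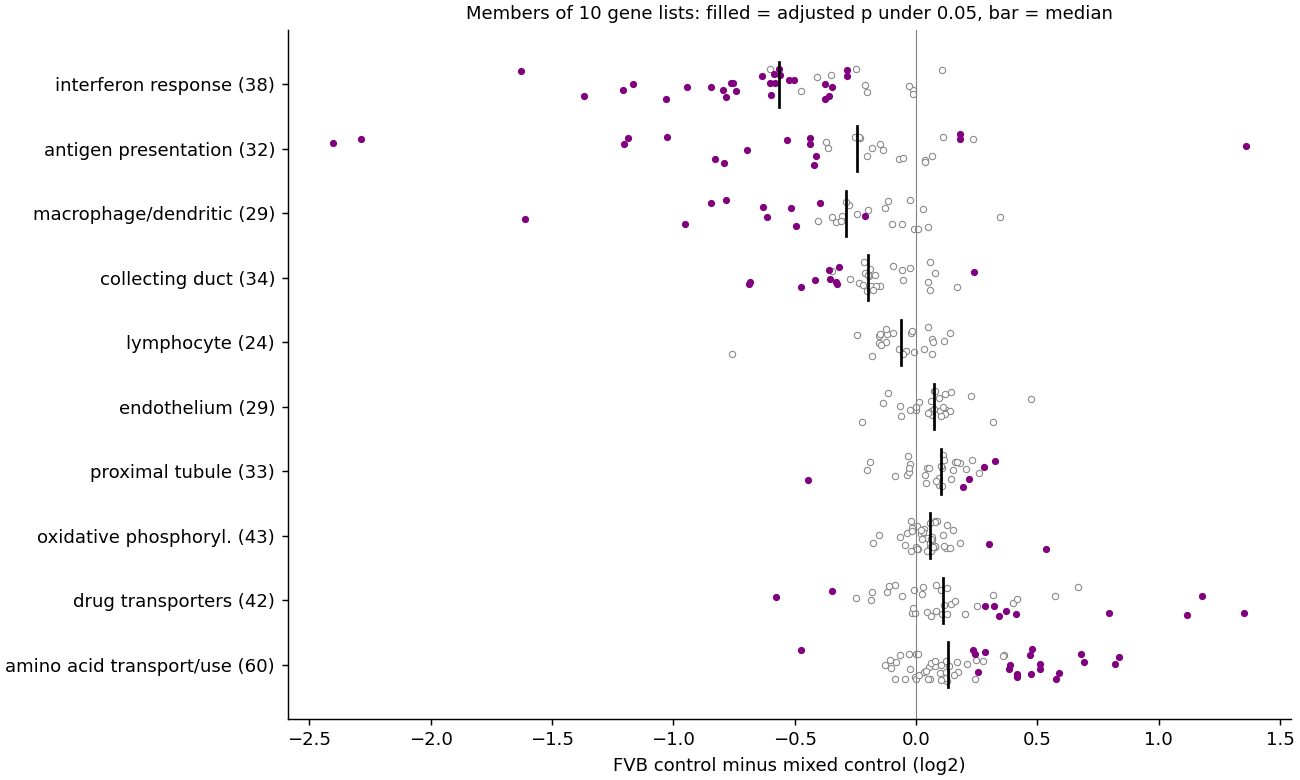
FVB control minus mixed control in log2 (x axis) for each measured gene of 10 lists, with the number of genes in brackets; filled points have a limma adjusted p under 0.05, open points do not, and the bar is the list's median. Interferon genes lie almost wholly below 0 (median -0.56), and amino acid genes mostly above it (median 0.13).

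Amino acid genes were the list with the most rises. The proximal tubule takes amino acids back from the filtrate and breaks down part of them. Of 60 transport and breakdown genes measured, 20 rose and 1 fell, against 3.71% and 4.26% of all genes, with a median difference of 0.13, and the rises numbered 12 without FVB control 1, 13 without FVB control 2 or mixed control 3, and 14 to 18 without 1 of the others. Among 10 genes of glycine and methyl group use 5 rose. Gldc, the enzyme that splits glycine in mitochondria, read 11.59, 11.47 and 11.65 in FVB and 10.59, 10.91 and 10.77 in the mixed controls (log2 difference 0.82, SE 0.09, adjusted p = 0.0023, limma). Dmgdh, which demethylates dimethylglycine, read 10.90, 10.81 and 10.78 against 10.29, 10.18 and 10.26, and Bhmt, which makes dimethylglycine from betaine, read 8.43, 8.11 and 7.97 against 7.31, 7.34 and 7.35. In each the groups stood clear of each other. Bhmt2 rose by 0.42, and these 3 genes lie next to each other in the genome.

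Of 6 genes of the path from tryptophan to NAD 4 rose, against 3.71% of all genes. Their median difference was 0.38 in the controls and 0.080 on the mutant arrays. There limma called 0 higher and 0 lower, against 1.83% and 2.05% of all genes. Acmsd, which diverts that path away from NAD, read 11.68, 11.52 and 11.55 in FVB and 11.14, 11.10 and 11.11 in the mixed controls. Haao, which makes its substrate, read 10.99, 10.81 and 10.71 against 10.30, 10.11 and 10.06, and Kynu, the step before, rose by 0.51. The 1 fall in the list was in Slc1a5, a transporter of neutral amino acids, at 9.51, 9.60 and 9.55 against 10.03, 10.04 and 10.01. The 2 paths were grouped, and Haao, Kynu and Bhmt2 chosen, after their values were seen. Proximal tubule markers as a whole had 4 rises and 1 fall of 33, 0 to 3 rises without any 1 array, and a median difference of 0.10 against 0.13 for the amino acid genes.

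Among 42 carriers of drugs and organic ions, 9 rose and 2 fell, against 3.71% and 4.26% of all genes, and the rises numbered 5 without mixed control 2 or 3 or FVB control 1 or 2. Slco1a6, an organic anion transporter of the kidney, read 11.97, 11.96 and 11.98 on the FVB arrays and 10.98, 10.88 and 10.71 on the mixed arrays. Slc22a7, an organic anion carrier, read 10.08, 9.90 and 9.97 against 8.71, 8.93 and 8.25. Slco1a1, which lies beside Slco1a6, rose by 1.18 from a low level, at 4.92, 5.02 and 5.31 against 3.99, 3.90 and 3.83. The neighbours are close relatives in sequence, so a probe set may read both.

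Cytochrome P450 genes, enzymes of drug and lipid oxidation, differed in both directions. Of 76 measured, 9 fell and 4 rose, against 4.26% and 3.71% of all genes (12 lower and 10 higher at an unadjusted p under 0.05), while 39 lay below 0 and 37 above, with a median of -0.0051. The rises numbered 2 without FVB control 2. Cyp2c23, an epoxygenase of arachidonic acid that is strong in kidney, read 7.97, 8.19 and 8.24 in FVB and 10.65, 10.80 and 10.90 in the mixed controls (log2 difference -2.65, SE 0.09, adjusted p = 1.7e-05, limma). Cyp2e1, the ethanol-oxidizing P450, read 11.32, 11.25 and 11.29 against 12.30, 12.36 and 12.33. Cyp4a12b, which makes the vasoconstrictor 20-HETE, read 5.31, 5.71 and 5.44 against 7.03, 6.69 and 6.86. Cyp2d22 rose by 0.50, at 11.17, 11.25 and 11.19 against 10.79, 10.71 and 10.61. Cyp27b1, which activates vitamin D, read 9.81, 9.56 and 9.89 against 10.45, 10.39 and 10.32. When all 12 arrays shared 1 estimate of the spread, the adjusted p of Cyp27b1 was 0.18. Of 11 UDP-glucuronosyltransferases, which tag drugs and steroids for excretion, 5 fell and 0 rose, against 4.26% and 3.71% of all genes. The counts were the same at an unadjusted p under 0.05. The falls numbered 3 with the replicate block, 3 without mixed control 1 or 3 or FVB control 2, and 1 without FVB control 3. Ugt2b34 read 9.28, 9.33 and 9.33 against 10.44, 10.47 and 10.69 and kept its call in each of these fits. Ugt2b38 read 8.21, 7.55 and 6.63 against 9.46, 9.002 and 10.11; its adjusted p was 0.055 with the replicate block and reached 0.078 without 1 of mixed control 1 or 3 or FVB control 2 or 3.

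Part of the collecting duct genes were lower in FVB. Of 34 measured, 9 fell and 1 rose, against 4.26% and 3.71% of all genes, with 28 below 0, a median difference of -0.20 and 8 to 10 falls without any 1 array. Among 18 genes of the intercalated cells, which secrete acid or base, 7 fell and 13 lay below 0. Among 16 genes of the principal cells, which take up sodium and water, 2 fell and 15 lay below 0, and the medians were -0.21 and -0.19. Slc4a9, a sodium-bicarbonate carrier of type B intercalated cells, read 10.42, 10.40 and 10.31 in FVB and 11.13, 11.07 and 10.98 in the mixed controls. Insrr, a receptor that senses alkali, read 8.71, 8.54 and 8.63 against 9.42, 9.34 and 9.18, and Slc26a4, the chloride-bicarbonate exchanger pendrin, read 9.81, 9.66 and 9.85 against 10.19, 10.13 and 10.25. The proton pump subunits Atp6v1b1, Atp6v0d2 and Atp6v1c2 fell by 0.35, 0.32 and 0.33. Slc26a7, an anion exchanger of the acid-secreting cells, was the single rise, and it lost its call without any 1 array but mixed control 2 (adjusted p up to 0.087). Of 29 loop and distal tubule genes 2 fell and 2 rose, with Trpv5, the calcium channel of the distal tubule, at 9.84, 9.86 and 10.04 against 10.56, 10.63 and 10.78. On the mutant arrays 7 of the 34 collecting duct genes were called lower and 0 higher, against 2.05% and 1.83% of all genes. Slc4a9 differed by -0.65 on the mutant arrays against -0.68 in the controls.

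Both metallothioneins named here and haem oxygenase, genes of stress and oxygen defence, were higher in FVB. Mt2, which binds zinc and copper, read 12.18, 12.54 and 12.75 on the FVB arrays and 11.36, 11.34 and 11.43 on the mixed arrays, and Mt1 rose by 0.87. Hmox1, which breaks down haem, read 9.85, 10.50 and 10.51 against 9.003, 8.86 and 9.13, but its adjusted p was 0.12 when all 12 arrays shared 1 estimate of the spread. The metallothioneins stood in a list of 18 glucocorticoid and stress genes, of which 2 rose and 2 fell, with a median difference of -0.11. Of 30 genes of the NRF2, heat shock and unfolded protein responses 6 rose and 2 fell, against 3.71% and 4.26% of all genes, and 3 rose without mixed control 3 or FVB control 2. Nnt, the proton pump noted above, read 11.87, 11.89 and 11.93 against 11.35, 11.49 and 11.22, a rise of 1.45-fold. Agt, the precursor of angiotensin, fell by 0.63, at 10.88, 10.94 and 10.71 against 11.54, 11.39 and 11.49. Pparg itself read 7.96, 7.94 and 7.996 against 7.90, 7.97 and 8.02, so the control groups overlapped in it (adjusted p = 0.98).

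Of 19 clock genes 2 rose and 2 fell, against 3.71% and 4.26% of all genes. Arntl, the activator of the clock, read 7.69, 7.45 and 7.61 on the FVB arrays and 6.94, 6.77 and 6.84 on the mixed arrays, and Per1, a repressor, read 9.26, 9.63 and 9.53 against 10.13, 10.11 and 10.04. On the mutant arrays Arntl read 8.51, 8.15 and 8.39 in A-ZIP and 8.30, 8.41 and 8.70 in Pparg null kidneys and did not pass the threshold (log2 difference -0.12, adjusted p = 0.63), while the test of the difference between the 2 comparisons gave an adjusted p of 0.27. The sources used here do not give the time of day at which kidneys were taken.

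Some other lists had a share of calls near or below the 7.97% of all genes, which at their size says little of the lists. Limma called 0 of 29 endothelial genes (5 higher and 1 lower at an unadjusted p under 0.05) and 0 of 14 skeletal muscle genes (1 and 0). It called 2 of 32 podocyte and glomerulus genes (6.25%), 2 of 43 oxidative phosphorylation genes (4.65%) and 2 of 35 cell cycle genes (5.71%). Of 47 genes of fatty acid oxidation and other PPARA targets 3 rose and 2 fell (10.6%), or 12 and 5 at an unadjusted p under 0.05, and the rises numbered 6 without mixed control 1 and 1 or 2 without any other array. A list of 34 measured genes known for strain differences had 14 calls, 4 higher and 10 lower in FVB, against 3.71% and 4.26% of all genes, and the falls numbered 6 without FVB control 2. Beside those named above, Apoa2, an apolipoprotein with strain variants, read 6.78, 6.97 and 6.93 against 7.51, 7.73 and 7.80, and Nlrp1a, an inflammasome sensor, fell by 0.73. Tyr, mutated in albino strains, and Pde6b, mutated in the retina of FVB mice, differed by 0.05 and 0.06 and were not called. Several lists not described in this report also had shares well above 7.97%. Of 22 kidney genes that differ by sex 5 rose and 4 fell (40.9%). Of 44 lipid and cholesterol synthesis genes 8 rose and 2 fell (22.7%). In both lists the rises numbered as few as 2 without 1 array.

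The mutant arrays gave the same pair of backgrounds in other mice. A-ZIP minus Pparg null called 773 genes (3.88% of all genes), 365 higher (1.83%) and 408 lower (2.05%), and mutation and background differ together in that comparison. Of the 1589 genes called in the controls, 517 (32.5%) were called in the mutants in the same direction, 224 higher and 293 lower, and 0 in the opposite direction (3 at an unadjusted p under 0.05 in the mutants). These 517 were 66.9% of the mutant calls. By sign alone, 1545 (97.2%) of the control calls went the same way in the mutants, against 67.9% of the other genes, and the median ratio of the mutant difference to the control difference was 0.831. Of 19 genes that differed by at least 4-fold in the controls 17 were called in the mutants in the same direction, and of 7 with at least 8-fold all 7 were. The counts rested on single arrays: without A-ZIP 1 there were 333 mutant calls and 261 shared calls, without A-ZIP 3 there were 433 and 339, without Pparg null 2 there were 372 and 300, and without Pparg null 3 there were 366 and 291. Without A-ZIP 2 there were 507 mutant calls.

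**Figure D4:**
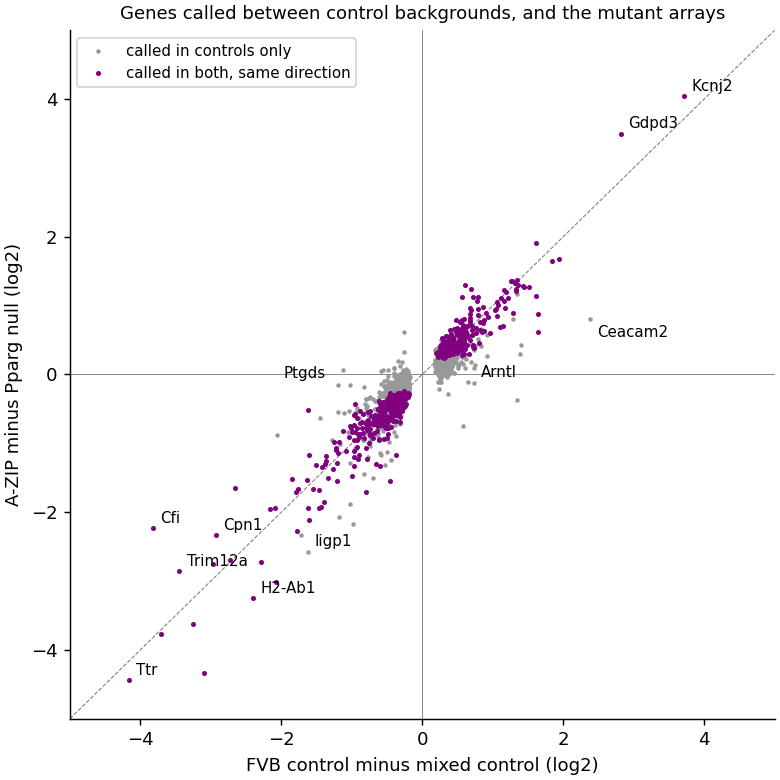
Each point is 1 of the 1589 genes called between the control backgrounds; the x axis is FVB control minus mixed control and the y axis A-ZIP minus Pparg null, both in log2, and the dashed line marks equal values. Purple points (517) were called in both comparisons in the same direction; Ttr and Kcnj2 lie near the line, and Ceacam2, Arntl and Ptgds lie near 0 on the y axis relative to their control difference.

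Ttr read 6.48, 6.90 and 7.29 in A-ZIP kidneys and 11.38, 11.39 and 11.24 in Pparg null kidneys, a log2 difference of -4.44 against -4.16 in the controls. Kcnj2 read 10.13, 10.12 and 9.93 against 5.99, 6.10 and 5.97, a difference of 4.04 against 3.71. Both differences were as wide as in the controls. Ceacam2 did not pass the threshold there (log2 difference 0.81, adjusted p = 0.46), with 8.91, 8.69 and 7.44 in A-ZIP and 8.63, 7.55 and 6.42 in Pparg null kidneys, and the test of the difference between the 2 comparisons gave an adjusted p of 0.86. Cfi, at 5.90, 5.78 and 5.44 against 8.002, 7.997 and 7.81, differed by less than in the controls (a change of 1.60 between the comparisons, SE 0.20, adjusted p = 0.022, limma), 1 of 4 genes called in this test (0.0201% of all genes, 2 or 0.01% in each direction). The call was lost without A-ZIP 1 (0.091) and in 7 of 12 fits that left out 1 array.

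Called genes often lay next to each other. Of 1583 called genes placed in the order of the RefSeq gene table, 304 (19.2%) had an adjacent measured gene called in the same direction. Over all 19856 genes placed, 7.22% had an adjacent gene called higher and 8.12% one called lower. The longest run held 5 genes lower in FVB, Ugt2b5, Ugt2b37, Ugt2a3, Ugt2b38 and Sult1b1, none of which kept its call without FVB control 3 (adjusted p of 0.053 for Ugt2b5 and 0.057 for Ugt2b37). With the replicate block Ugt2a3 was at an adjusted p of 0.093, Ugt2b38 at 0.055 and Sult1b1 at 0.057. There were 3 runs of 4 genes. One of them joined unrelated genes: Dnmbp, Cpn1, Cyp2c23 and Erlin1 were all lower in FVB. Cpn1, the catalytic chain of carboxypeptidase N, which trims kinins and complement fragments, read 8.78, 8.86 and 8.92 against 11.69, 11.79 and 11.87 (log2 difference -2.93, SE 0.06, adjusted p = 2.2e-06, limma). Erlin1, a lipid raft protein of the endoplasmic reticulum, read 9.08, 9.05 and 9.02 against 9.92, 10.02 and 10.01. Dnmbp differed by -0.22 and lost its call without 1 of 5 arrays (adjusted p up to 0.086).

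The other runs of 4 were Gbp8, Gbp9, Gbp4 and Gbp11, interferon-induced GTPases that were lower in FVB, and Dvl1, Tas1r3, Cptp and Ints11, which were higher. When all 12 arrays shared 1 estimate of the spread the 4 Gbp genes had adjusted p of 0.13, 0.069, 0.39 and 0.22. In the other run Cptp, a ceramide phosphate carrier, had the widest gap, at 9.15, 9.06 and 9.09 against 8.12, 8.44 and 8.36, while the other 3 rose by 0.22 to 0.35 and lost their calls without 5 of the 6 arrays; with the replicate block Tas1r3 was at an adjusted p of 0.055 and Ints11 at 0.090. Among the 15 runs of 3 were H2-Ab1, H2-Aa and H2-Eb1, as well as the 3 C1q chain genes and the Bhmt, Bhmt2 and Dmgdh run. C1qa, however, lost its call without any 1 array but FVB control 2 and was at 0.080 with the replicate block.

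Other probe sets of the same genes gave a limited check of the probes. Of the called genes 69 had further probe sets, 163 in all. Of these 163, 76 belonged to 1 gene, Hmcn1, and 7 held exactly the values of the probe set used. Of the other 80, for 64 genes, 69 differed in the same direction, 21 were called in that direction, and 1, for Pdia4, was called in the opposite one.

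The label mixed raises the question of whether the mixed pools differed more among themselves than the FVB pools. Over all genes the median SD over 3 arrays was 0.0685 in the mixed controls and 0.0665 in the FVB controls, and 51.9% of genes had the larger SD in the mixed group. Among the 1589 called genes 58.4% did, with median SDs of 0.0717 and 0.0605. An SD over 0.5 was seen in 35 genes over the mixed and 33 over the FVB controls. In 8 genes it was over 0.5 in the mixed and under 0.15 in the FVB controls, and in 8 others the reverse. No test was made of these spreads.

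In Klk1b22, Fgb and Catspere2 a single mixed pool stood apart from the other 2. Klk1b22, a tissue kallikrein, read 7.44, 7.18 and 10.36 over the mixed arrays and 6.96, 6.995 and 7.22 over the FVB arrays. Fgb, a fibrinogen chain, read 7.30, 6.96 and 8.53, and mixed control 3 was also highest for Plac8, Iigp1 and Tfrc. Catspere2, a sperm channel gene, read 8.14, 6.56 and 6.61 over the mixed arrays against 9.04, 8.93 and 8.85 over the FVB arrays. In mixed control 1 it lay nearer to the FVB level than in the other 2 pools, and it lost its call without 1 of 5 arrays (adjusted p up to 0.092). Akr1c18, a progesterone-inactivating enzyme, had a difference of 3.82 but no call (adjusted p = 0.057), since its mixed pools read 10.03, 6.60 and 6.20 and its FVB pools 12.05, 11.82 and 10.41. With the replicate block it passed at 0.023. Akr1c18 was chosen after its values were seen.

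**Figure D5:**
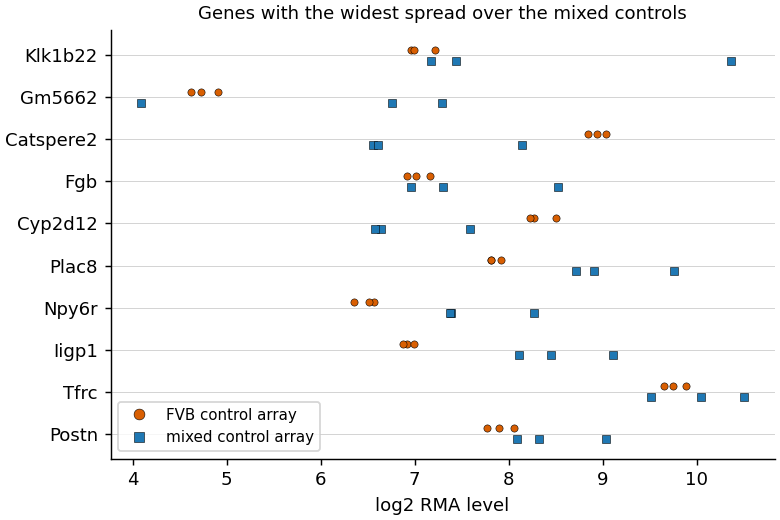
Log2 RMA level (x axis) of the 10 genes with the largest SD over the 3 mixed control arrays (squares) among genes whose SD over the 3 FVB control arrays (circles) was under 0.15. One mixed array stands away from the other 2 in Klk1b22 (10.36), Gm5662 (4.09), Catspere2 (8.14) and Fgb (8.53).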

How the data were processed

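Whole-kidney RNA was extracted with Trizol and a silica column, amplified and labelled for Affymetrix whole-transcript arrays, per the labels' protocols. Per the submitters' processing notes, the authors made the deposited log2 levels by RMA, run in Affymetrix Expression Console. RMA corrects background, equalizes the distribution of arrays and gives 1 value per probe set, so a shift of all genes would be removed. The sources used here name no version, setting or genome build of the annotation.

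The log2 values entered the tests as deposited. Of 35556 probe sets 21789 had 1 gene symbol in the platform table, 1621 several and 12146 none, and symbols were updated by Entrez number for 21698. Of a gene's probe sets the one with the highest mean over the 6 control arrays was kept, for 19938 genes. Probe sets left out held 65 calls with several symbols and 335 with none.

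Group means were fitted with limma 3.58.1 in R 4.3.3 to the 6 control arrays (4 residual degrees of freedom, 3.40 from the prior, median SE 0.0604), to the 6 mutant arrays apart, and to all 12 for the difference between these comparisons. Adjusted p-values follow Benjamini and Hochberg over all genes, with a threshold of 0.05. The number of arrays limits the precision. Values were simulated on these genes' means and spreads, with 50 genes changed at each size and noise independent between arrays. Of changes of 0.3 in log2 32% were found, of 0.5 64%, of 1 96% and of 1.5 100%, with 1 false call among 19738 genes. The simulation had fewer changed genes than were called here and no shared deviations by replicate number. These shares may therefore not hold for this contrast.

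The comparison, the 41 gene lists and the naming rule were chosen with earlier results of these data known. The rule took the 15 largest differences per direction among called genes without overlap between the groups, leaving out predicted genes. It also took the strain list, up to 4 members of each other list and the 5 longest runs of neighbours. Added to these were 10 genes by spread and up to 10 by the difference between comparisons. Other members are named for their role and were chosen after their values were seen. Lists are described by counts, with no test of a list.

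Control arrays of the same replicate number deviated together (correlation of deviations from group means 0.247, 0.181 and 0.135 for numbers 1 to 3), a pairing seen in the data and not stated in the labels. Mutant arrays did so only for number 3 (0.005, -0.084 and 0.228). A mutant pair of unlike numbers, A-ZIP 2 and Pparg null 1, stood at 0.245. Correlations of this size thus also arose without a shared number. Alternatives were other normalizations, filters, probe set rules, variance models, thresholds, the replicate block and leaving out each array.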

Additional observations from a re-analysis of the deposited data

Results flagged for a closer look

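In 4 genes A-ZIP minus Pparg null differed from FVB control minus mixed control. The limma test was of the difference of the 2 differences on all 12 arrays (1160 genes had an unadjusted p under 0.05). Mutation and background differ together in the mutants, so a change here cannot be credited to background. Ptgds, a prostaglandin D synthase, read 8.83, 9.14 and 9.12 in FVB controls, 10.20, 10.20 and 10.30 in mixed controls, 9.32, 9.28 and 9.42 in A-ZIP and 9.33, 9.51 and 9.64 in Pparg null kidneys. It differed by -1.20 between the controls and by -0.15 between the mutants, a change of 1.05 (SE 0.13, adjusted p = 0.022, limma). Cfi differed by -3.83 in the controls and -2.23 in the mutants, a change of 1.60 (SE 0.20, adjusted p = 0.022, limma). Krt5, a basal epithelial keratin, differed by -0.07 and -1.70, a change of -1.63, and Actg2, a smooth muscle actin, by 0.23 and -0.80, a change of -1.03. In both, the 3 Pparg null arrays stood above the other 9 (8.55, 8.32 and 8.95 for Krt5; 6.92, 7.09 and 7.14 for Actg2). When 1 array was left out, Actg2 was called in 9 of 12 fits, Krt5 in 6, Cfi in 5 and Ptgds in 5. All 4 lost the call without A-ZIP 1 (adjusted p = 0.062 for Actg2 and 0.091 for the others, limma).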

How the results depend on the processing

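No gene taken by the naming rule changed direction in a setting if it was called there or in the main test. Changes of sign in genes called in neither were not counted. Of 162 genes of the rule that were called, 107 kept the call whichever control array was left out and 55 lost it without at least 1. The count of control calls lay between 792 and 1082 when 1 array was left out, and was 2458 at an adjusted p under 0.10 and 315 with a fold of at least 1.5. With the replicate block it was 1460, of which 1243 were also called without the block. The block ended the call of 19 of the 162 genes taken by the naming rule; those printed in the report have the value beside them. It added no call among the other genes of the rule, and outside the rule it gave calls to Zbp1, B2m and Akr1c18, as printed in the report. The mutant calls numbered 513 with the block, 1719 when all 12 arrays shared the spread, 1555 at 0.10, 282 with the fold, and 333 to 545 when 1 array was left out. Calls shared by controls and mutants numbered 852, 927 and 180 for the shared spread, 0.10 and the fold, and 261 to 445 with 1 array left out. The test of the difference between comparisons called 1 gene above percentile 50 of mean expression, 1 with the block, 7 at 0.10 and 0 to 9 with 1 array left out. The share of genes with the larger SD in mixed controls was 52.9% after quantile normalization again. The share of called genes with a called neighbour was 21.3% and 24.9% above percentiles 25 and 50, and 16.0% with the fold. For these settings no share over all genes is given, and that share moves with the number of calls. Whether neighbours were more or less frequent than in the main test thus cannot be read from them. The cause of the shifts in this section was not tested, beyond what fewer genes or arrays set. Signal over background was not used here, so no floor is given for low levels.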
